A study of Sus scrofa with 15 samples.

Results

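The genes described here are 6 members of the receptor system for interleukin 4 (IL-4) and interleukin 13 (IL-13): IL13RA2, IL13RA1, IL4R, IL2RG, JAK3 and STAT6. They were matched by symbol among the 30477 Ensembl genes of each count file, and all 6 passed the filter on low counts that left 14918 genes. IL13RA2 was chosen by its own read counts, for its rise in 1 of the experimental diets, so its values are a description and carry no test. The other 5 members were taken for their place in the same pathway and were tested in the fit across all genes.

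The values come from RNA-seq of backfat, the subcutaneous fat of the back, of 15 growing Iberian pigs under restricted feeding. The control (C) group received a compound feed without an olive by-product, the DOP group a compound feed made with dry olive pulp, and the WCOC group a compound feed with a freely offered silage of wet crude olive cake. Each diet was represented by 5 pigs and 1 library per pig. Each diet was kept in 1 pen, so diet and pen cannot be told apart, and p-values measure the spread between pigs. Each olive diet was compared with C, and both with each other (WCOC vs. DOP), to ask which transcripts of fat differ when olive by-products enter the growing diet.

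IL-4 and IL-13 are cytokines of type 2 immunity. IL-4 binds the IL-4 receptor alpha chain (IL4R), which pairs either with the common gamma chain (IL2RG) or with IL13RA1, and the second form also binds IL-13. The chains carry Janus kinases, JAK3 on the common gamma chain, and these phosphorylate STAT6, which enters the nucleus. IL13RA2 binds IL-13 with high affinity, has a short tail within the cell and is known as a decoy receptor. In fat the pathway is known for the state of resident macrophages.

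The decoy chain and its signalling relative differ in what lies inside the cell, so the coding bases behind the membrane stretch are shown for both. They were read from the Sscrofa11.1 genome with the RefSeq annotation, the build the counts rest on, 5′ to 3′ on the coding strand, and capitals mark in-frame tyrosine codons. The stretch was taken as the most hydrophobic window of 21 codons.
IL13RA2: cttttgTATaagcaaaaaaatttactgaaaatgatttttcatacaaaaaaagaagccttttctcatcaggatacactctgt
IL13RA1: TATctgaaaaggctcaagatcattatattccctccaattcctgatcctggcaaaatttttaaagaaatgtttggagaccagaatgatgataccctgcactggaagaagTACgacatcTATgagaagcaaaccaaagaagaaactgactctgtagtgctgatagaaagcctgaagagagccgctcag
The IL13RA2 tail is 27 codons long with 1 tyrosine, lies on the minus strand between chrX:94402765-94403505 and is split over 2 exons. The IL13RA1 tail is 62 codons long with 3 tyrosines, lies on the plus strand between chrX:97337393-97353751 and is split over 3 exons. IL4R, the chain that carries the STAT6 docking sites, has 566 codons with 5 tyrosines behind its stretch, and IL2RG has 93 codons with 5 tyrosines. All 4 receptor genes encode 1 copy of the WSxWS motif of the cytokine receptor family.

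IL13RA2 (ENSSSCG00000012594) lies on chromosome X from 94402665 to 94455609 on the minus strand and overlaps no other annotated gene. RefSeq gives it 8 transcript models with 6 distinct starts, which all encode 387 residues over 9 coding exons and share 8 exons. The models differ in their first, non-coding exons and in where the last exon ends, and counts per gene do not say which start was used. The window of 250 bases before the start shared by 3 of the 8 models (minus strand, chrX:94446348-94446597) is shown because it belongs to the gene whose level differed.
IL13RA2 upstream window: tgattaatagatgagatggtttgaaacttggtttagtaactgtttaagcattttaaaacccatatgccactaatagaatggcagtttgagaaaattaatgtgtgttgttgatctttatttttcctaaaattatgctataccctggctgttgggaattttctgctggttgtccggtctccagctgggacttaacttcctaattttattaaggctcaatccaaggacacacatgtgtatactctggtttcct
The window held 36.0% G and C, against a median of 58.4% over 19531 windows of the same length. Neither TTCNNNNGAA, the spacing STAT6 is known to prefer, nor TTCNNNGAA nor TATAAA was found in it on either strand. The shares of all windows with these motifs were 4.76%, 6.07% and 9.57%, and the windows of the other 5 members held none of them either. The 2 TTC motifs differ by 1 base of spacing and were counted separately.

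**Figure D1:**
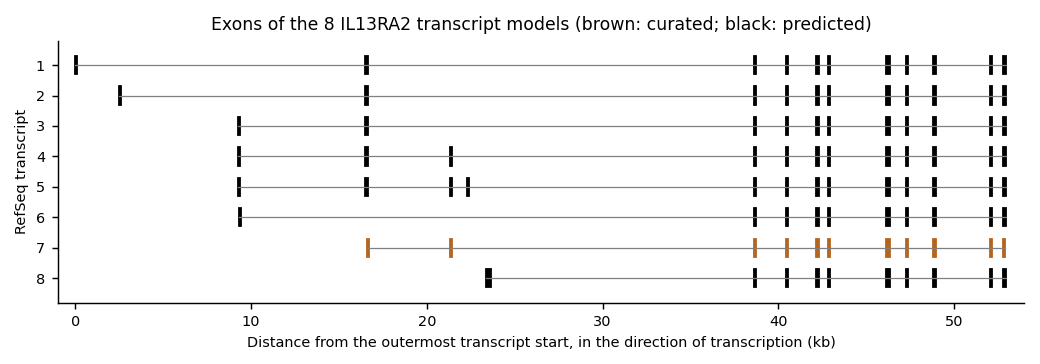
The 8 transcript models of IL13RA2 are drawn by distance in kilobases from the outermost start, with exons as boxes and introns as lines. The models have 6 distinct starts, and the 8 exons that all models share stand toward the right, before a last exon whose end differs.

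The libraries held 22373715 to 34745218 counts on genes, and levels are given as CPM, counts scaled to a library of common size, after TMM scaling. Markers of fat cells were high in every library, with summed levels of 12449 to 21841 CPM over 8 genes. Skeletal muscle markers set several libraries apart. Their summed level (3 of 6 genes matched) was 1806, 38.9, 2916, 186 and 69.6 CPM in C replicates 1 to 5, 29.8, 8755, 180, 4812 and 37593 CPM in DOP, and 15.5 to 584 CPM in WCOC. By the run identifiers, flow cell B held the 5 DOP libraries and C replicate 5, and flow cell A held everything else, so 1 control alone was run beside DOP. In bulk fat, fewer cells of a type and less RNA per cell cannot be told apart.

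IL13RA2, the decoy chain, was higher in every DOP library than in any library of the other diets. Its level in C replicates 1 to 5 was 5.30, 4.14, 1.94, 3.08 and 2.92 CPM. In DOP replicates 1 to 5 it was 11.3, 12.8, 22, 16.2 and 10.3 CPM. In WCOC it was 6.81, 5.32, 4.44, 4.89 and 3.42 CPM. The lowest DOP library stood above the highest library of C and of WCOC, whereas the ranges of WCOC and C overlapped. The counts behind these levels were 61 to 108 in C, 281 to 712 in DOP and 116 to 208 in WCOC.

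The mean of IL13RA2 was 3.48 ± 1.28 CPM in C, 14.5 ± 4.73 CPM in DOP and 4.98 ± 1.24 CPM in WCOC (SD, n = 5). The fitted log2FC was 2.07 (SE 0.28) in DOP vs. C, and 0.52 (SE 0.27) in WCOC vs. C. In WCOC vs. DOP it was −1.55 (SE 0.27). Across all genes, 3.47% had no overlap between DOP and C, 7.62% none between WCOC and C, and 8.90% none between WCOC and DOP, and since the gene was chosen for this contrast nothing is read from its own place among them.

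With each of the 10 libraries of a comparison left out in turn, the log2FC of IL13RA2 ran from 1.86 to 2.26 in DOP vs. C, from 0.36 to 0.71 in WCOC vs. C and from −1.68 to −1.35 in WCOC vs. DOP. The only control on flow cell B, C replicate 5, had 2.92 CPM, within the range of the other controls. With flow cell as a covariate the log2FC in DOP vs. C was 2.31, an estimate that rests on that 1 library. DOP replicates 1 and 3, with skeletal muscle markers at 29.8 and 180 CPM, had 11.3 and 22 CPM of IL13RA2. Without the 5 libraries above 1000 CPM of skeletal muscle markers, a choice made after seeing the data, the log2FC was 2.30 in DOP vs. C. That fit kept only DOP replicates 1 and 3 and C replicates 2, 4 and 5. The part of skeletal muscle or flow cell in the level of IL13RA2 was not tested.

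**Figure D2:**
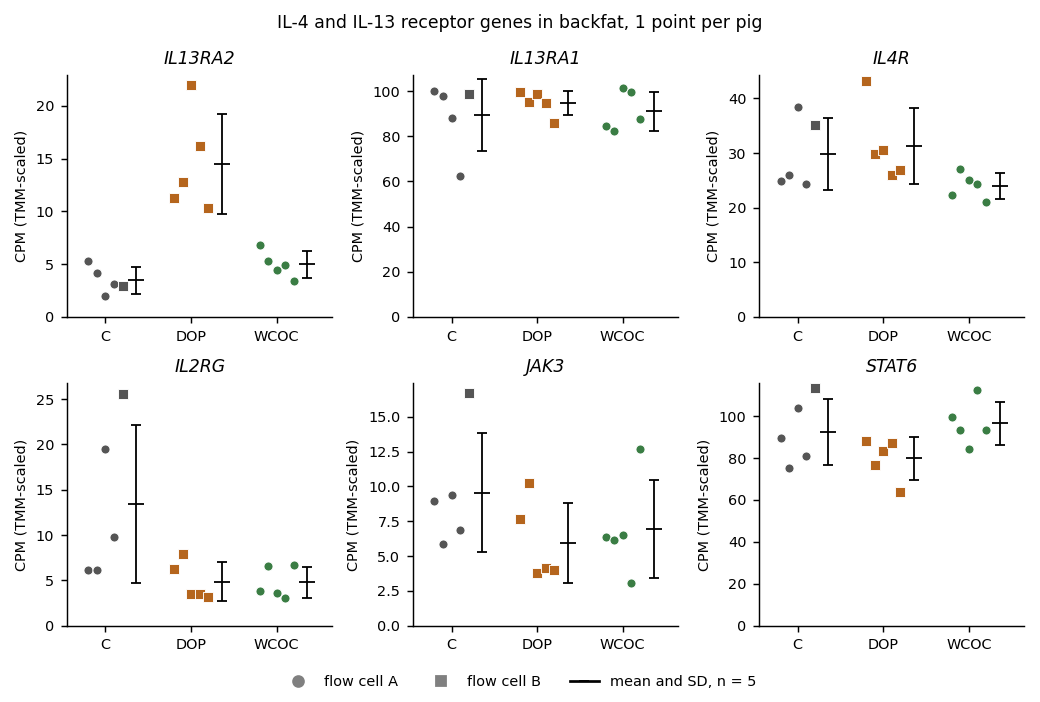
Levels of the 6 genes in CPM are plotted by diet, 1 point per pig, with circles for flow cell A, squares for flow cell B and the mean with its SD (n = 5) beside them. IL13RA2 is between 10.3 and 22 CPM in DOP and at most 6.81 CPM elsewhere, while IL2RG is above 10 CPM only in C replicates 3 and 5.

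The signalling chain IL13RA1 (ENSSSCG00000012633, chromosome X from 97300960 to 97353754, plus strand) differed little between diets. In C replicates 1 to 5 it was at 99.9, 97.9, 88.1, 62.4 and 98.7 CPM. The DOP libraries had 99.5, 95.4, 98.8, 94.6 and 86.0 CPM and the WCOC libraries 84.6, 82.4, 101, 99.6 and 87.4 CPM. The 3 ranges overlapped, and C replicate 4 was the lowest of all 15 libraries. The edgeR quasi-likelihood test gave log2FC 0.09 in DOP vs. C (SE 0.11, 95% interval −0.16 to 0.33, adjusted p = 0.752). It gave 0.03 in WCOC vs. C (−0.21 to 0.27, edgeR adjusted p = 0.911) and −0.06 in WCOC vs. DOP (−0.30 to 0.18, edgeR adjusted p = 0.780).

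IL4R (ENSSSCG00000007817, chromosome 3 from 19526343 to 19576792, minus strand), the chain that both receptor forms share, was not a DEG in any comparison. Its levels were 24.9, 26.0, 38.5, 24.4 and 35.2 CPM in C, and 43.3, 29.9, 30.5, 26.0 and 26.9 CPM in DOP. In WCOC they were 22.3, 27.1, 25.1, 24.3 and 21 CPM. WCOC had the narrowest range, and DOP replicate 1 stood above all other libraries. The log2FC was 0.07 in DOP vs. C (SE 0.16, edgeR adjusted p = 0.858) and −0.31 in WCOC vs. C (SE 0.16, edgeR adjusted p = 0.218). In WCOC vs. DOP it was −0.38 (SE 0.16, edgeR unadjusted p = 0.0270, adjusted p = 0.123), with 4 of 5 WCOC libraries below every DOP library.

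IL2RG, the common gamma chain (ENSSSCG00000012397, chromosome X from 57143568 to 57151242, minus strand), was the 1 tested member that passed the limits, and it did so in WCOC vs. C. Its levels in C replicates 1 to 5 were 6.13, 6.15, 19.5, 9.74 and 25.6 CPM. In DOP they were 6.31, 7.92, 3.49, 3.46 and 3.14 CPM, and in WCOC 3.83, 6.63, 3.66, 3.02 and 6.70 CPM. The controls spread widely, with replicates 3 and 5 far above the rest, and both olive diets overlapped with the lower controls. The means were 13.4 ± 8.74 CPM in C, 4.86 ± 2.14 CPM in DOP and 4.77 ± 1.76 CPM in WCOC (SD, n = 5).

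In WCOC vs. C the log2FC of IL2RG was −1.50 (SE 0.42, 95% interval −2.40 to −0.60, edgeR adjusted p = 0.0370). In DOP vs. C it was −1.47 (SE 0.42, −2.37 to −0.57, edgeR unadjusted p = 0.00340, adjusted p = 0.108), and DESeq2 gave an adjusted p of 0.0120. With flow cell as a covariate it was −2.40 (edgeR adjusted p = 0.0544), which again rests on C replicate 5. WCOC vs. DOP gave −0.03 (−0.92 to 0.87, edgeR adjusted p = 0.975). DOP vs. C and WCOC vs. C share their 5 controls, among them the 2 high ones. The WCOC vs. C call was made in 5 of 10 fits with 1 library left out, and it was lost without C replicate 3 (edgeR adjusted p = 0.0924), C replicate 5 (0.0992), WCOC replicate 1 (0.0948), WCOC replicate 3 (0.0836) or WCOC replicate 4 (0.0886). Within flow cell A, with 4 C and 5 WCOC libraries, the log2FC was −1.14 (edgeR adjusted p = 0.108), and without the 5 libraries rich in skeletal muscle markers it was −1.55 (edgeR adjusted p = 0.0872).

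Macrophage markers fell in WCOC vs. C as IL2RG did, with a median log2FC of −1.12 over 8 genes. In DOP vs. C their median was −0.29, and in WCOC vs. DOP, where IL2RG was at −0.03, it was −0.77. These medians join markers that differed in DOP, where 7 were below 0 against C and 1 was above. CD68 had means of 24.5, 8.81 and 5.70 CPM in C, DOP and WCOC, and AIF1 15.1, 6.53 and 7.17 CPM. Both were lower in both olive diets, as IL2RG was. CD163 had means of 29.97, 33.01 and 13.45 CPM in the same order, and MRC1 20.7, 18.2 and 9.10 CPM, lower mainly in WCOC. In WCOC vs. DOP 7 of the 8 were below 0 and 1 was called, against 7.76% of all genes. Their summed level (8 of 8 genes matched, none at 0) was 306, 206, 473, 231 and 561 CPM in C replicates 1 to 5, with replicates 3 and 5 again the highest. It was 155 to 383 CPM in DOP and 108 to 274 CPM in WCOC. Of the 8 macrophage markers, 4 fell and 0 rose in WCOC vs. C, beside 3.93% and 2.33% of all genes, and all 8 had an unadjusted p under 0.05 (26.4% of all genes). DESeq2 called 7, and the number was 1 with flow cell as a covariate, 1 within flow cell A, 2 with only the diets compared, 0 with the replicate block and 1 without the libraries rich in skeletal muscle markers. In DOP vs. C 0 macrophage markers passed the limits (3 had an unadjusted p under 0.05, against 17.6% of all genes, and DESeq2 called 2). T cell markers (6 of 7 matched) summed to 13.3 to 23.2 CPM in C, 4.85 to 31.3 CPM in DOP and 3.62 to 21.2 CPM in WCOC, and 0 of 6 were DEGs in any comparison by the edgeR test, with 0 at an unadjusted p under 0.05, and 0 were DEGs by DESeq2. Markers of natural killer and innate lymphoid cells (6 of 6 matched, 4 tested) had 3 below 0 and 1 above in WCOC vs. C. By edgeR 1 fell as a DEG, against 3.93% of all genes, and 0 were called with flow cell as a covariate. In DOP vs. C 3 of the 4 were also below 0, with 0 DEGs by edgeR and 1 by DESeq2. The part of macrophage or lymphoid cell number in the IL2RG result was not tested. IL2RG overlaps MED12 in the annotation, and MED12 had log2FC 0.07 in WCOC vs. C (edgeR adjusted p = 0.633).

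**Figure D3:**
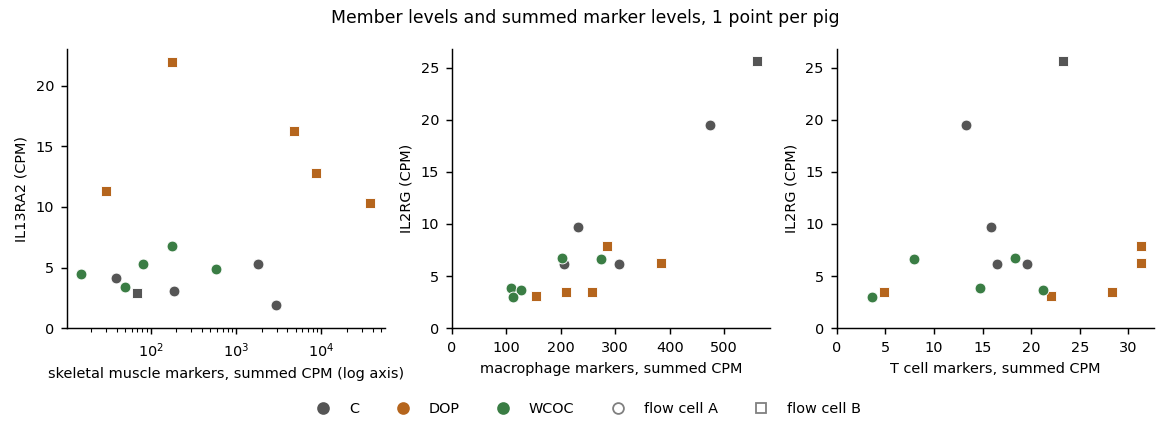
The level of a member in CPM is plotted against a summed marker level in CPM, 1 point per pig, coloured by diet and shaped by flow cell, with skeletal muscle on a log axis. IL13RA2, chosen for its rise in DOP, is above 10 CPM in the 5 DOP libraries, whose skeletal muscle markers run from 29.8 to 37593 CPM. The 2 controls with the most IL2RG have the highest macrophage sums, 473 and 561 CPM.

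JAK3, the kinase bound to the common gamma chain (ENSSSCG00000013888, chromosome 2 from 59905901 to 59926504, plus strand), was low in all diets. It was at 8.98, 5.85, 9.36, 6.89 and 16.7 CPM in C replicates 1 to 5 and at 7.63, 10.2, 3.77, 4.13 and 4.01 CPM in DOP. In WCOC it was at 6.35, 6.18, 6.53, 3.05 and 12.7 CPM. The groups overlapped, and the highest library was C replicate 5, which was also the highest for IL2RG. The log2FC was −0.69 in DOP vs. C (SE 0.39, −1.51 to 0.13, edgeR adjusted p = 0.377), −0.46 in WCOC vs. C (SE 0.38, edgeR adjusted p = 0.471) and 0.23 in WCOC vs. DOP (SE 0.38, edgeR adjusted p = 0.747).

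STAT6, the factor at the end of the pathway (ENSSSCG00000040435, chromosome 5 from 22406356 to 22422412, minus strand), was abundant in every library. It stood at 89.7, 75.4, 104, 81.0 and 113 CPM in C and at 88.3, 76.5, 83.6, 87.4 and 63.7 CPM in DOP. In WCOC it stood at 99.8, 93.5, 84.6, 112 and 93.4 CPM. All ranges overlapped, with DOP replicate 5 the lowest. The log2FC was −0.21 in DOP vs. C (SE 0.12, edgeR adjusted p = 0.383) and 0.06 in WCOC vs. C (SE 0.12, edgeR adjusted p = 0.782). In WCOC vs. DOP it was 0.28 (SE 0.12, edgeR unadjusted p = 0.0375, adjusted p = 0.151), with 4 of 5 WCOC libraries above every DOP library. STAT6 overlaps NAB2, which had log2FC −0.18 in DOP vs. C and −0.18 in WCOC vs. C.

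Over the 5 tested members, 0 were DEGs in DOP vs. C, where 0.764% of all genes were called, with 1 member at an unadjusted p under 0.05 in edgeR (17.6% of all genes) and 1 called by DESeq2. In WCOC vs. C 1 of 5 was a DEG, against 6.25% of all genes, and the same member was the 1 with an unadjusted p under 0.05, against 26.4%. In WCOC vs. DOP 0 of 5 were DEGs, against 7.76% of all genes, with 2 at an unadjusted p under 0.05 in edgeR (28.1% of all genes) and 0 called by DESeq2. The median log2FC of the 5 was −0.21, −0.31 and −0.03 in these comparisons, and that of all genes 0.01, 0.00 and 0.00.

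**Figure D4:**
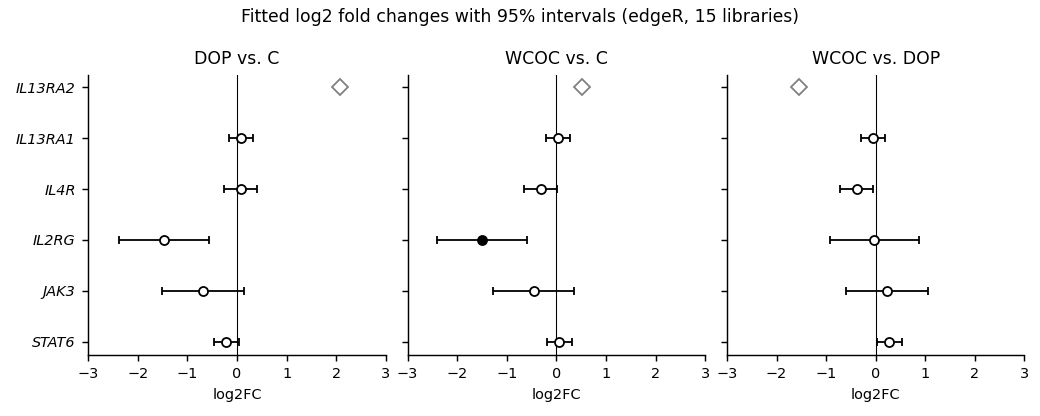
The fitted log2FC of each gene is plotted for the 3 comparisons, with 95% intervals for the 5 tested members and a filled point for a DEG. IL13RA2, drawn as a grey diamond without an interval because it was chosen for its rise in DOP, is at 2.07, 0.52 and −1.55, and IL2RG is at −1.47, −1.50 and −0.03.

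Levels of different genes were set side by side as CPM per kilobase of annotated exon. In C the order of means was IL13RA1 (70.3), STAT6 (21.7), IL4R (7.10), IL2RG (5.95), JAK3 (1.98) and IL13RA2 (1.61 CPM per kb). The annotated model of IL13RA1 holds coding bases only, so its value per length is too high beside the others. Exon lengths join all models of a gene, 2157 bases for IL13RA2, and no single model of it holds all its alternative first exons. Its value per length is therefore low. Its places beside JAK3, IL2RG and IL4R may depend on this choice, and other lengths were not tried. The ranges over pigs overlapped between IL4R and IL2RG, between IL2RG and JAK3 and between JAK3 and IL13RA2. In DOP, IL13RA2 stood next below IL4R at 6.73 CPM per kb (range 4.78 to 10.2), overlapping with IL4R (6.21 to 10.3) and above all values of IL2RG (1.39 to 3.51) and JAK3 (0.778 to 2.11). In WCOC it was at 2.31 CPM per kb (1.59 to 3.16), below all values of IL4R (5.01 to 6.46) and overlapping with IL2RG (1.34 to 2.97) and JAK3 (0.630 to 2.63).

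Transcripts of the ligands themselves were almost absent from the libraries, and protein was not measured. In the annotation IL4 and IL13 both overlap KIF3A. IL4 had 1 count in 1 of 15 libraries, and IL13 had 13 counts in 7 of 15 libraries, at most 3 in 1 library. A count of 0 allows up to 3 counts, or 0.0863 to 0.134 CPM depending on the library, counting error only. Both were under the filter, so differences of IL-4 and IL-13 transcripts between diets were not detectable at this depth. IL33, an alarmin that acts upstream of both cytokines, was at 52.7 ± 17.6 CPM in C, 48.8 ± 7.80 CPM in DOP and 58.6 ± 16.1 CPM in WCOC (SD, n = 5), with edgeR adjusted p of 0.847 for DOP and 0.706 for WCOC against C, and 0.488 between the olive diets.

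Per kilobase of exon, JAK1 was above JAK3 in C, at 47.9 against 1.98 CPM per kb. JAK2 was not set apart from JAK3, with 2.46 CPM per kb in C and ranges that overlapped in every diet. JAK1, bound to IL4R, was at 280 ± 19.6 CPM in C with log2FC 0.08 in DOP and −0.05 in WCOC (edgeR adjusted p = 0.664 and 0.775). JAK2 was at 22.8 ± 3.41 CPM with log2FC −0.15 and −0.03 (edgeR adjusted p = 0.502 and 0.866). TYK2, bound to IL13RA1, was at 96.7 ± 14.2 CPM with log2FC 0.15 and 0.27 (edgeR adjusted p = 0.594 and 0.179). None of the 8 kinases and adaptors, 6 other STAT factors, 8 inhibitors and 5 receptors that share a chain or act upstream was a DEG in any of the 3 comparisons by edgeR, and the numbers at an unadjusted p under 0.05 in DOP vs. C were 2, 0, 1 and 1. In WCOC vs. C these numbers were 2, 2, 2 and 1, and in WCOC vs. DOP 0, 1, 2 and 1. Of all tested genes, 17.6%, 26.4% and 28.1% had such a p in these comparisons. DESeq2 called 1 of these genes, the inhibitor CISH in WCOC vs. C (log2FC 1.23, DESeq2 adjusted p = 0.0386), where edgeR gave an adjusted p of 0.109. The most abundant gene of each of these lists, in the order named, was JAK1, STAT3 (156 ± 11.5 CPM in C), the phosphatase PTPN11 (228 ± 36.2) and IL2RA (8.18 ± 2.51).

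Besides the 6 members, 77 genes were listed for the pathway, of which 65 were matched and 56 tested. By edgeR 0 of 56 were DEGs in DOP vs. C (11 at an unadjusted p under 0.05, and 4 DEGs by DESeq2), with 0.764% and 17.6% of all genes beside these counts. There were 8 DEGs (14.3%) in WCOC vs. C, against 6.25% of all genes, and 5 (8.93%) in WCOC vs. DOP, close to the 7.76% of all genes. All of these DEGs belong to the list of 21 tested genes that respond to IL-4 or IL-13, in which 1 rose and 7 fell in WCOC vs. C, beside 2.33% and 3.93% of all genes. The median log2FC of the 21 genes was −0.18 in DOP vs. C, −0.51 in WCOC vs. C and −0.54 in WCOC vs. DOP.

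CCL26, a chemokine for eosinophils, rose in WCOC vs. C (log2FC 0.89, SE 0.24, edgeR adjusted p = 0.0331). Its level was 5.63 ± 1.77 CPM in C, 4.45 ± 1.57 CPM in DOP and 10.4 ± 1.28 CPM in WCOC, and no WCOC library overlapped with C or DOP. The falls in WCOC vs. C included receptors of macrophages: CD200R1 (log2FC −1.96, SE 0.46), the lectin CD209 (−1.80, SE 0.41) and the mannose receptor MRC1 (−1.19, SE 0.35), with edgeR adjusted p of 0.0175, 0.0158 and 0.0423. MRC1 is also one of the 8 macrophage markers above, whose sum was lower in WCOC. The PD-1 ligand PDCD1LG2 fell by 0.85 on the log2 scale. The matrix proteins POSTN and FN1 and the adhesion molecule VCAM1 fell by 1.00, 1.65 and 0.69. Markers of fibroblasts and preadipocytes moved with these genes, with 7 of 7 below 0 in WCOC vs. C, 5 at an unadjusted p under 0.05 (26.4% of all genes) and 2 called (6.25%), of which 0 were called without the libraries rich in skeletal muscle markers. Their summed level (7 of 7 matched, none at 0) was 19509 to 28798 CPM in C, 17302 to 26729 CPM in DOP and 13184 to 21985 CPM in WCOC, and their part in the result was not tested. With 1 library left out in turn, CD209, FN1 and PDCD1LG2 were DEGs in 10 of 10 fits, CD200R1 in 9 (lost without WCOC replicate 1), VCAM1 in 5, CCL26 and MRC1 in 4 and POSTN in 2. The count of 8 was 4 without C replicate 3, 5 without C replicate 5, 3 without WCOC replicate 1, 4 without WCOC replicate 4, and 5 without WCOC replicate 3 or 5. It was 2 without the 5 libraries rich in skeletal muscle markers. The count of 5 in WCOC vs. DOP was 2 without DOP replicate 4 or WCOC replicate 4, 3 without DOP replicate 5, WCOC replicate 1 or WCOC replicate 3, and 0 without the libraries rich in skeletal muscle markers.

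In DOP vs. C 8 of the 21 responsive genes were above 0 and 13 below. Among those above, TGM2, a transglutaminase, had log2FC 0.69 (edgeR adjusted p = 0.0748). IL1R2, the decoy receptor of interleukin 1, had 1.95 (edgeR adjusted p = 0.0820), and neither was a DEG. CD200R1 had log2FC −1.93 in DOP vs. C (edgeR adjusted p = 0.0600). Of the list of IL13RA2 partners and the TGF-beta arm, 7 genes were tested and 0 were DEGs in any comparison by edgeR or DESeq2, with 1, 1 and 2 at an unadjusted p under 0.05 in edgeR (17.6%, 26.4% and 28.1% of all genes). Its most abundant member, the receptor TGFBR2, was at 222 ± 19.3 CPM in C, 295 ± 54.4 CPM in DOP and 219 ± 14.3 CPM in WCOC, with edgeR adjusted p of 0.0996 in DOP vs. C and, for a log2FC of −0.43 below the limit, 0.0282 in WCOC vs. DOP.

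**Figure D5:**
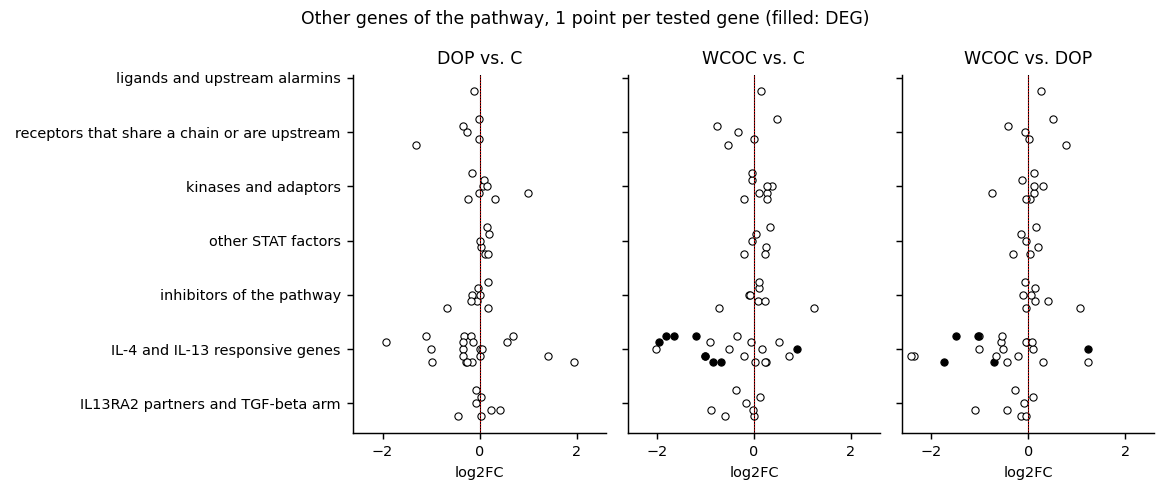
Each tested gene of the 7 other pathway lists is plotted by its log2FC in the 3 comparisons, filled where it was a DEG, with a dotted line at the median of all genes. Filled points occur in the list of responsive genes alone, 0 in DOP vs. C, 8 in WCOC vs. C and 5 in WCOC vs. DOP.

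The genes whose log2 CPM followed IL13RA2 most closely over the 15 libraries were CNOT8 (Pearson r 0.88), MST1R (0.87), RFLNB (0.87), PXDN (0.86) and ENPEP (0.85), the highest of 11132 genes with a symbol and at least 1 CPM. These values were picked as the highest and carry no test. The 5 DOP libraries stand apart for IL13RA2, and with each diet centred on its own mean the same genes had r of 0.48 to 0.55 and ranks from 341 to 610. CNOT8 was at 29.0 CPM in C, 38.1 CPM in DOP and 29.5 CPM in WCOC, and PXDN, a matrix peroxidase, at 220 CPM, 328 CPM and 260 CPM.

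For IL2RG the closest genes were ITGAM, an integrin of myeloid cells, and DOK2, an adaptor of blood cells (r 0.99 and 0.98, and 0.98 and 0.96 within diets). JAK3 was followed by PTPRC, the CD45 antigen of white blood cells, and LY9 (r 0.97 for each). STAT6 was followed by CSF1 and SLC49A3 (0.90 and 0.88), IL4R by RELL1 and STAB1 (0.87 and 0.84), and IL13RA1 by B3GALNT1 and SCN3A (0.88 and 0.84). Within diets these pairs had r of 0.79 to 0.98, and the pooled values were again picked as the highest and carry no test.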

How the data were processed

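Backfat RNA of 15 Iberian pigs, 5 per diet, was sequenced as paired-end libraries. The authors checked the reads with FastQC, mapped them untrimmed to Sscrofa11.1 with HISAT2 under a strand-specific option, and obtained counts per Ensembl gene with HTSeq. The deposited values are raw counts of read pairs, 1 file per pig. Which strand setting the counting used, and which annotation release, is not given in the sources used here. Summary lines for uncounted reads took 23.4% to 32.8% of a library and entered no step.

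Diets and replicate numbers were taken from the labels. The test was the quasi-likelihood F test of edgeR 4.0.16 (R 4.3.3) after filterByExpr, which left 14918 genes, and TMM scaling. All 15 libraries entered 1 fit with a mean for each diet, giving a common dispersion of 0.0814. P-values are two-sided and adjusted after Benjamini-Hochberg across all genes of the fit. DEGs were genes with adjusted p below 0.05 whose log2FC reached 0.58 in either direction, the limits of the study. A prior count of 1 was added for log2 CPM. The alternatives were the size factors and the Wald test of DESeq2 1.42.0, limma-voom (3.58.1), other filters and limits, fits of the compared diets alone, a replicate block, a flow cell term, flow cell A alone and leave-one-out fits. The fit was tested on simulated data. Python 3.11.15 was used for sequences and plots.

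The members and all gene lists were chosen with earlier results of these data known. The genes named are the 6 members, IL4, IL13, the Janus kinases, every listed gene that was a DEG in at least 1 comparison, the most abundant gene of each list, the annotated neighbours of IL13RA2, and the genes most like each member (5 for IL13RA2, 2 for the others). KIT, CISH, CD68, AIF1 and CD163 were named after their values were seen. Positions and sequences come from the RefSeq annotation of Sscrofa11.1.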

Additional observations from a re-analysis of the deposited data

Results flagged for a closer look

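IL4R in DOP replicate 1 was at 43.3 CPM, far from the nearest DOP library at 30.5 CPM, a gap of 0.742 of the range of the group. POSTN in WCOC replicate 1 was at 201 CPM, with the nearest WCOC library at 431 CPM, a gap of 0.743 of the range. Chance marks about 1 in 20 groups of libraries in this way, and 2 of 51 groups of 1 gene and 1 diet were marked.

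For 6 genes the change against C differed between the 2 olive diets by the edgeR test of WCOC vs. DOP, which uses no control. The genes looked at were the members, LRCH2 and the pathway DEGs of any comparison, this one among them. TGM2 and IL1R2 entered through this test alone, and 5 of the 6 repeat the DEGs given above. Of all genes 7.76% were called in it, and nothing further is read from the 6. The difference in log2FC was 1.22 for CCL26 (adjusted p = 0.00801), −1.49 for CD209 (0.0312), −1.73 for IL1R2 (0.0362), −0.70 for PDCD1LG2 (0.0249) and −1.03 for TGM2 (0.00370). LRCH2, the annotated neighbour 30950 bases upstream of IL13RA2 on the same strand, differed by −1.21 (edgeR adjusted p = 0.00356). With flow cell as a covariate none of the 6 was called, and diet and flow cell cannot be told apart for DOP beyond 1 library.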

How the results depend on the processing

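Alternatives left the log2FC of IL13RA2 at 2.06 to 2.31 in DOP vs. C, 0.46 to 0.59 in WCOC vs. C and −1.85 to −1.54 in WCOC vs. DOP. Of 633 values for single tested genes, IL13RA2 left out, under the alternatives and leave-one-out fits, 505 kept direction and side of the limits, 110 lost the call, 1 gained it and 17 changed sign. The cause was not tested where a count or sign moved. Without the muscle-rich libraries only DOP replicates 1 and 3 and C replicates 2, 4 and 5 remain beside WCOC. Calls lost there cannot be told apart from an effect of fewer libraries. The number of tested members called in DOP vs. C was 0, and 1 with DESeq2. In WCOC vs. C it was 1, and 0 with limma-voom, only the diets compared, the replicate block, a flow cell term, the libraries of flow cell A, or the libraries rich in skeletal muscle markers left out. The other pathway genes called in DOP vs. C numbered 0, but 4 with DESeq2 and 1 with flow cell as a covariate. In WCOC vs. C they numbered 8, but 1 with the replicate block, 5 with flow cell as a covariate, 3 in flow cell A and 2 without the muscle-rich libraries. In WCOC vs. DOP they numbered 5, but 3 with limma-voom, 0 with flow cell as a covariate and 0 without the muscle-rich libraries. Over all genes, DOP vs. C had 114 calls, but 518 with DESeq2, 19 with limma-voom, 2 with only the diets compared, 0 with the replicate block and 0 without the muscle-rich libraries. WCOC vs. C had 933, but 1493 with no limit on the log2FC, 473 with the replicate block, 486 in flow cell A and 354 without the muscle-rich libraries. WCOC vs. DOP had 1158, but 1842 with no limit, 561 with the replicate block, 1 with flow cell as a covariate and 92 without the muscle-rich libraries.

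With 1 library left out, the members called ranged from 0 to 0 in DOP vs. C, 0 to 1 in WCOC vs. C and 0 to 0 in WCOC vs. DOP, in the same order, the other pathway genes from 0 to 1, 3 to 9 and 2 to 6, and all genes from 0 to 200, 468 to 1163 and 639 to 1291. In DOP vs. C the 0 over all genes came without C replicate 3, C replicate 5, DOP replicate 2 or DOP replicate 4. Signs of small log2FC changed: with flow cell as a covariate IL13RA1 was −0.058 in DOP vs. C and 0.12 in WCOC vs. DOP, IL4R −0.17 in DOP vs. C and IL2RG 1.27 in WCOC vs. DOP, where limma-voom gave 0.012. Leave-one-out ranges that crossed 0 were −0.022 to 0.12 and −0.084 to 0.064 for IL13RA1 in DOP vs. C and WCOC vs. C, −0.077 to 0.18 for IL4R in DOP vs. C, −0.18 to 0.22 for IL2RG and −0.11 to 0.51 for JAK3 in WCOC vs. DOP, and −0.0034 to 0.14 for STAT6 in WCOC vs. C. The replicate numbers were checked as a pairing: over 15 pairs of same-numbered libraries the correlation of deviations from the diet means ran from −0.50 to 0.34, 3 were over 0.1, and 3 of 15 libraries correlated best with their own number, so the libraries share only a number. The depth of 22373715 or more counts per library gave IL13RA2 at least 61 counts, while IL4 and IL13 stayed at 3 counts or fewer.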

Other observations

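The genomic neighbours of IL13RA2 were read as values. LRCH2 was at 0.589, 0.983, 1.05, 0.701 and 0.795 CPM in C replicates 1 to 5, at 1.08, 0.943, 1.27, 1.28 and 1.29 CPM in DOP, and at 0.622, 0.412, 0.457, 0.445 and 0.590 CPM in WCOC. The DOP and C ranges overlapped, and the WCOC libraries lay below all DOP libraries. Its log2FC was 0.50 in DOP vs. C (edgeR adjusted p = 0.214) and −0.70 in WCOC vs. C (edgeR adjusted p = 0.0437, called in 2 of 10 fits with 1 library left out), with counts of 11 to 41 per library. HTR2C, the nearest protein coding gene on the other side, 89312 bases away, had at most 6 counts in any library. Relations to the neighbours were not tested.

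Of 5 tested markers of mast cells and eosinophils, the 1 DEG in each olive diet against C was KIT (log2FC 0.78 and 0.87, edgeR adjusted p = 0.0452 and 0.00680). Of all genes 0.764% and 6.25% were called, and DOP vs. C and WCOC vs. C share their controls. In DOP vs. C 4 of the 5 markers were above 0, with a median log2FC of 0.51. In WCOC vs. C the 4 markers other than KIT were below 0, and the median of the list was −0.74. KIT in DOP vs. C was not called under 6 of 9 alternatives, with an adjusted p of up to 0.655, or in 9 of 10 fits with 1 library left out, all but that without C replicate 1. In WCOC vs. C it was called in 9 of 10 alternatives, and not without the libraries rich in skeletal muscle markers (edgeR adjusted p = 0.0539). B cell markers summed to 0.726 to 11.6 CPM over all libraries, with 1 of 5 markers at 0 throughout.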
